A study of Homo sapiens with 21 samples.

Results

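Transcripts of 10 collagen genes were followed in cultured human cells. The set holds the fibrillar collagen genes COL1A1, COL1A2, COL3A1, COL5A1 and COL5A2, the basement membrane collagen genes COL4A1 and COL4A2, and the type VI genes COL6A1, COL6A2 and COL6A3. The genes were chosen by name, with earlier results of these data known, and every probe annotated to them was read. Counts of these genes set against all probes carry that limit. This gave 14 probes for the 10 genes, of 30113 probes that carried 1 gene and of 20046 genes in all. Type VI collagen builds beaded microfibrils and is neither a fibrillar nor a basement membrane collagen, so its 3 genes are described as a class of their own.

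The 21 samples were total RNA isolated on silica columns, each read on 1 Illumina BeadChip array, and they formed 7 groups of 3. In 5 groups the cells were KLE, an endometrial carcinoma line, and each group carried 1 hairpin RNA: the control hairpin shCTRL, hairpin 059 or 062 against MSH3 (shMSH3), or hairpin 543 or 603 against MSH6 (shMSH6). The other 2 groups were samples labelled as controls of HCT116, a colorectal carcinoma line, and of MCF10A, breast epithelial cells that do not form tumours. MSH3 and MSH6 take part in finding mispaired bases after DNA replication, and the question put by the series is how transcription differs where this repair is defective. The labels do not say whether a hairpin line is a clone or a pool, what the HCT116 and MCF10A controls received, or that replicates came from separate cultures, so the p-values measure the spread between these samples, which may be technical.

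Collagens are built from 3 chains wound into a triple helix, and each chain has a gene of its own. Fibrillar collagens are secreted as procollagens, trimmed at both ends and cross-linked into the fibres of connective tissue, where types III and V are laid down together with type I and type V limits fibre width. Type IV collagen forms the network of the basement membrane under epithelia, usually from COL4A1 and COL4A2 chains, and type VI collagen links cells and basement membranes to the surrounding matrix. Fibroblasts make most fibrillar collagen in tissue, while epithelial cells and the cells around them supply basement membrane collagen.

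Array medians ranged from 87.7 to 122 intensity units, array minima from 66.3 to 89.5, and the highest value was 24678, so background was still part of every value. All levels given here are log2(intensity + 16) after quantile normalization of the 21 arrays, and the array median on this scale was 6.92. A fold on this scale understates the change of a dim probe, and the number of arrays, 3 in each group, limits the precision. MSH6 stood at 23.0% of its control level with hairpin 543 and at 52.5% with hairpin 603 (adjusted p = 7.94e-05 and 0.0183). Of the MSH3 probes, ILMN_1719471 stood at 57.9% with hairpin 059 (adjusted p = 0.0266) and at 63.7% with hairpin 062, which did not pass the test (adjusted p = 0.0706), while ILMN_2077130 stood at 97.5% and 87.5% and passed with neither. Of 6 epithelial markers, 4 (CDH1, EPCAM, KRT8 and KRT19, not KRT18 and CLDN4) were read at over 1 log2 unit above the array median on all KLE and HCT116 arrays, and 2 (CDH1 and EPCAM) on all MCF10A arrays. KLE also carried EMX2, PAX8 and SOX17, which are 3 of the 5 Mullerian markers that could be read of 7 listed, and MCF10A carried DSG3, KRT14 and KRT5, all 3 basal markers that could be read of 5 listed. Of 5 colon markers, 1 (CDX2) was read at that level in HCT116. No leukocyte marker of 4 read reached that level in KLE.

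Of the 14 collagen probes, 13 lay above the array median on enough KLE arrays to be tested there (at least 3 of 15), and they cover all 10 genes. In the comparison of lines, 12 were tested, again for all 10 genes. The second COL1A2 probe (ILMN_2104356) was tested in neither set and the second COL6A3 probe (ILMN_2307861) in KLE only. Several probes had group means close to the array median throughout: both COL1A2 probes, 1 of the 3 COL6A2 probes (ILMN_1765017) and both COL6A3 probes. COL1A1 and COL5A1 were dim, with group means of at most 7.28 and 7.32. The other probes, of COL3A1, COL5A2, COL4A1, COL4A2, COL6A1 and COL6A2, lay further above the median in at least 1 group.

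**Figure D1:**
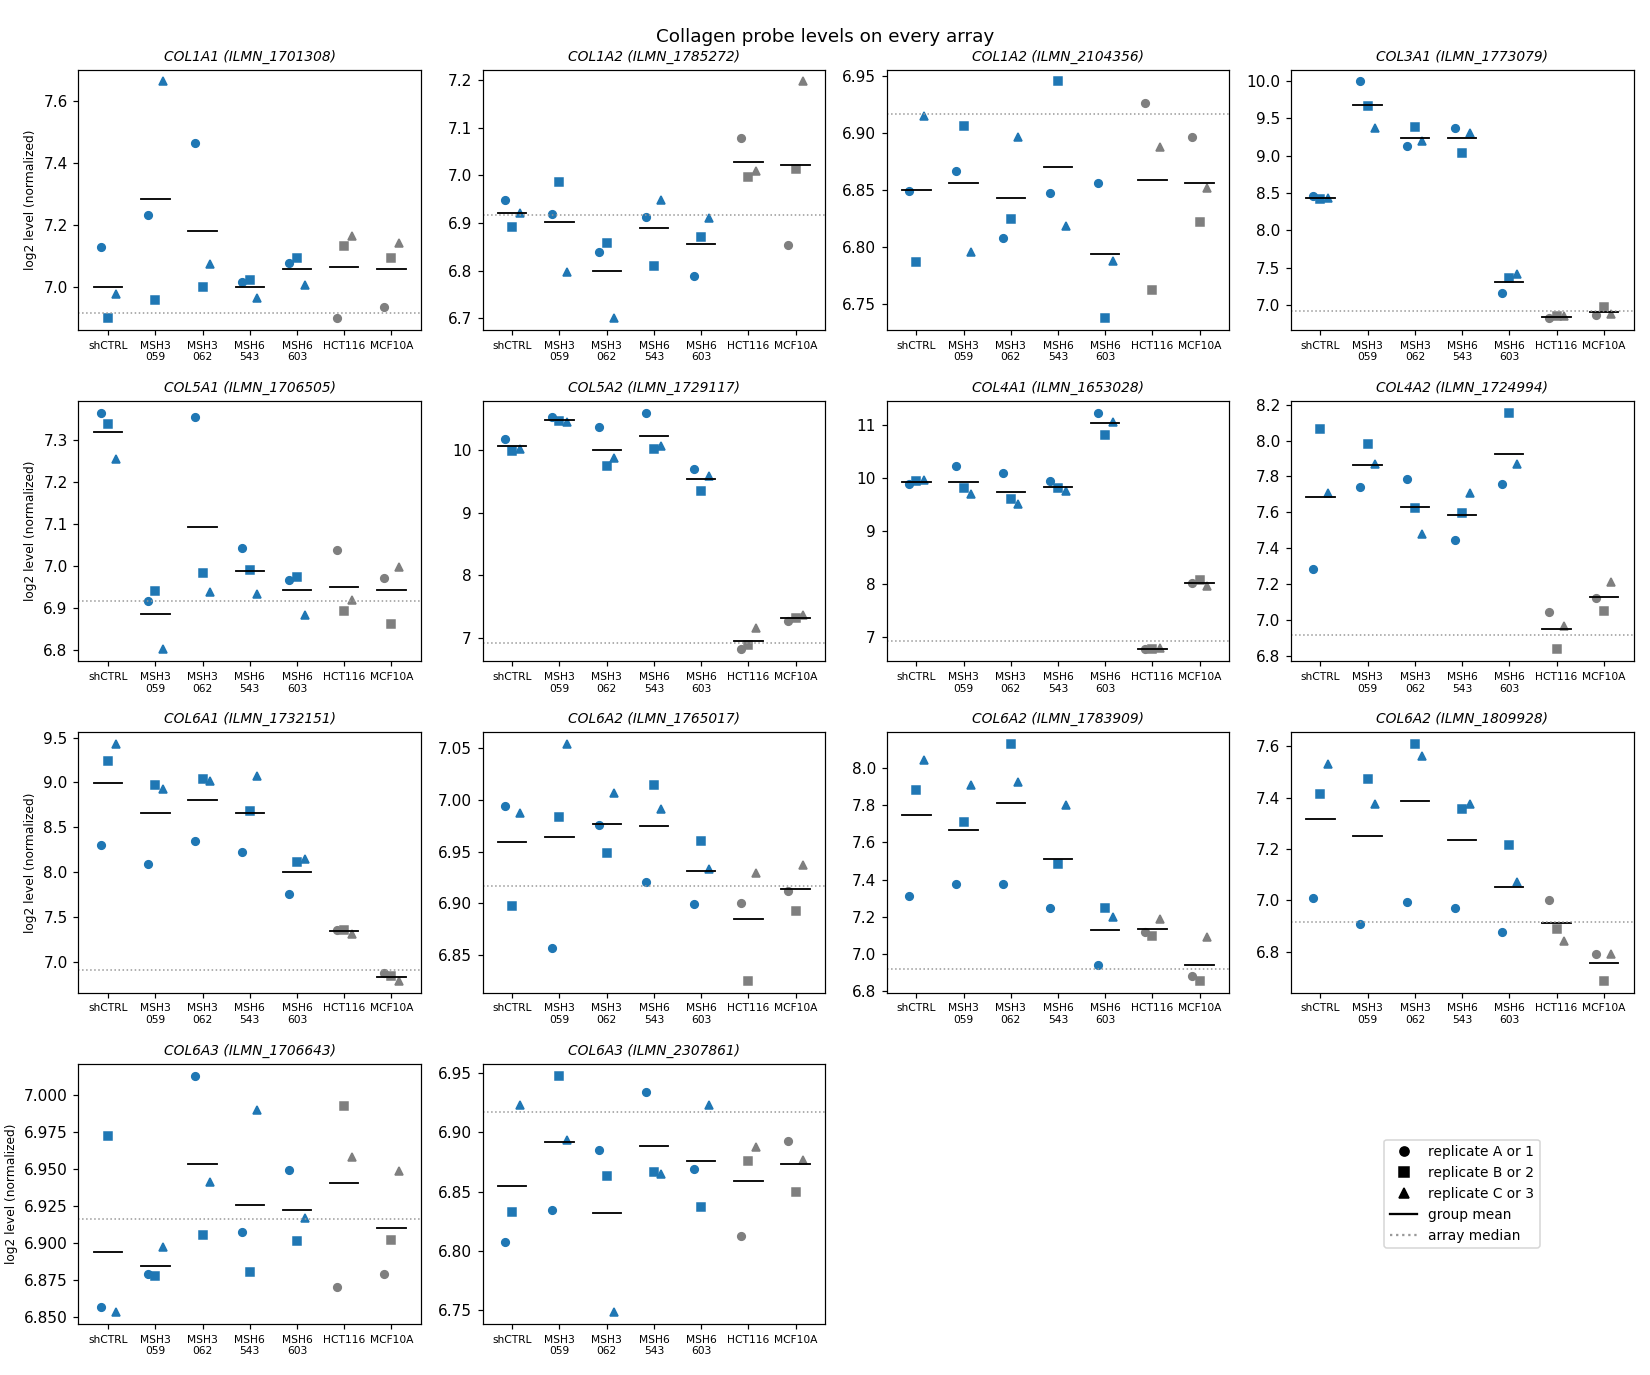
Log2 level of each of the 14 collagen probes (vertical axis, own scale in each panel) on each of the 21 arrays, by group, with KLE arrays in blue and the other lines in grey. Marker shapes give the replicate, black bars the group mean and the dotted line the array median of 6.92; COL3A1 lies lowest of the KLE groups with hairpin 603, where COL4A1 lies highest.

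The fibrillar genes are taken first. Type III collagen, the product of COL3A1 (chromosome 2, 188974373 to 189012746 in GRCh38.p14), forms the fine fibres of distensible tissues. Its probe read 499, 281 and 331 intensity units in shCTRL arrays A, B and C, and 994, 665 and 344 with hairpin 059. With hairpin 062 it read 834, 530 and 387. With hairpin 543 the values were 962, 419 and 442. With hairpin 603 they were 117, 142 and 131, and all 3 lay below every other KLE array. As deposited, the arrays of the other 3 hairpins overlapped with shCTRL, and letter A read brightest in all 4 of these groups. After normalization the shCTRL arrays drew together at 8.46, 8.43 and 8.43, and no hairpin group overlapped with them.

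COL3A1 rose with 3 of the 4 hairpins and fell with hairpin 603. Its mean level was 8.44 ± 0.02 (SD, n = 3) in shCTRL, 9.68 ± 0.31 with 059, 9.24 ± 0.13 with 062, 9.24 ± 0.17 with 543 and 7.32 ± 0.14 with 603. The change was 1.24 log2 units with 059 (SE 0.14, adjusted p = 0.00165; limma's moderated test, Benjamini-Hochberg over the 20692 probes tested). With 062 and 543 it was 0.80 each (SE 0.14, adjusted p = 0.0410 and 0.0415). With 603 it was -1.12 (SE 0.14, adjusted p = 0.00139), a level 2.18-fold lower. Taken letter by letter, the difference from shCTRL was 1.53, 1.24 and 0.94 with 059 in A, B and C, and 0.67, 0.95 and 0.77 with 062. It was 0.91, 0.62 and 0.87 with 543, and -1.30, -1.06 and -1.01 with 603. All 4 comparisons share the 3 shCTRL arrays, and in bulk RNA fewer cells with a transcript and less of it per cell cannot be told apart.

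COL3A1 was the only collagen probe of 13 called with hairpin 059, where 0.348% of all tested probes passed. It was also the only one with 062, where 0.232% passed, and with 543, where 0.261% passed. The calls with 062 and 543 were fragile, each kept in 6 of 17 alternative settings, among them the replicate letter as a block. Leaving out any shCTRL array, any array of hairpin 543, or array B or C of hairpin 062 ended the call concerned. Median scaling of the arrays in place of quantile normalization, and values as deposited, ended the COL3A1 call with all 4 hairpins (adjusted p of at least 0.185) with the direction kept. When median scaling was combined with the replicate letter as a block, a fit chosen after seeing the data, the fall with 603 passed again (-1.25, adjusted p = 0.0137) and the rises did not (adjusted p = 0.0506 with 059, 0.325 with 062 and 0.410 with 543). Normexp background correction took the COL3A1 difference with 603 to -1.82.

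COL5A2 encodes a chain of type V collagen and is the neighbour of COL3A1, 19151 bases away on chromosome 2 (189031898 to 189441111). In shCTRL its levels on arrays A, B and C were 10.18, 9.98 and 10.02, and with 603 they were 9.69, 9.35 and 9.59, all below the shCTRL arrays. With 059 they were 10.54, 10.46 and 10.45, all above shCTRL. With 062 and 543 the arrays overlapped with shCTRL. The difference was -0.52 with 603 (SE 0.17, adjusted p = 0.197) and 0.42 with 059 (adjusted p = 0.591), which did not pass. A block for the replicate letter let the fall with 603 pass (SE 0.10, adjusted p = 0.0113), while 059 did not (adjusted p = 0.0775), and as deposited the difference of COL5A2 with 059 (ILMN_1729117, 059 against shCTRL) turned to -0.08, where the median of all probes stood at -0.27. The difference with 603 was -0.49, -0.63 and -0.43 in the 3 letters.

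COL5A1 encodes the other main chain of type V collagen (chromosome 9, 134641803 to 134844843). Its probe read 194, 136 and 143 intensity units in shCTRL and 97, 103 and 81 with 059. With 603 it read 101, 106 and 95. After normalization the shCTRL mean was 7.32 ± 0.06, and the hairpin means lay between 6.89 and 7.09, near the array median. The differences were -0.43 with 059, -0.23 with 062, -0.33 with 543 and -0.38 with 603 (SE 0.09 each), and none passed (adjusted p = 0.101, 0.582, 0.329 and 0.0627). The within-letter difference was below 0 in all 3 letters with all 4 hairpins, ranging from -0.01 for 062 in letter A to -0.45 for 059 in letters A and C, against the same 3 shCTRL arrays. In the blocked fit, the falls with 059 and 603 passed (adjusted p = 0.0143 and 0.0101), and those with 062 and 543 did not (0.171 and 0.0651). The 250 bases before its start are shown as the promoter of a member whose mean lay below shCTRL with every hairpin, as those of COL6A1 and the tested COL1A2 probe also did, with GGGCGG boxes (a GC box, here on the opposite strand) in capitals. The sequence is RefSeq's, GRCh38.p14, chr9:134641553-134641802, plus strand.

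COL5A1: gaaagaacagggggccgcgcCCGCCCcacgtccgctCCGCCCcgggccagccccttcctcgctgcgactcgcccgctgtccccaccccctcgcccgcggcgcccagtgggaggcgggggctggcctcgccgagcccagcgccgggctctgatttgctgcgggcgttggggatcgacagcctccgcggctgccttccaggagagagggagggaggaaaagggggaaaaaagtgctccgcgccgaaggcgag

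The capitals mark 2 GC boxes, 230 to 225 and 214 to 209 bases before the start, and this window held no TATAAA on either strand and no match to the CCAAT box. Of 34943 promoters searched on both strands over the same 250 bases, 42.5% held GGGCGG, 10.8% held TATAAA and 32% held the CCAAT box.

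COL1A1 (chromosome 17, 50184101 to 50201631) and COL1A2 (chromosome 7, 94394895 to 94431227) encode the chains of type I collagen, the main collagen of bone, skin and tendon. The COL1A1 probe ranged from 6.90 to 7.66 over all 21 arrays, with the highest values on 059 array C (7.66) and 062 array A (7.47), and groups next to each other in level overlapped. The tested COL1A2 probe ranged from 6.70 to 7.20. Neither probe passed with any hairpin. For COL1A1 with 603 the difference was 0.06 (95% interval -0.28 to 0.39), and for COL1A2 it was -0.06 (95% interval -0.20 to 0.08).

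**Figure D2:**
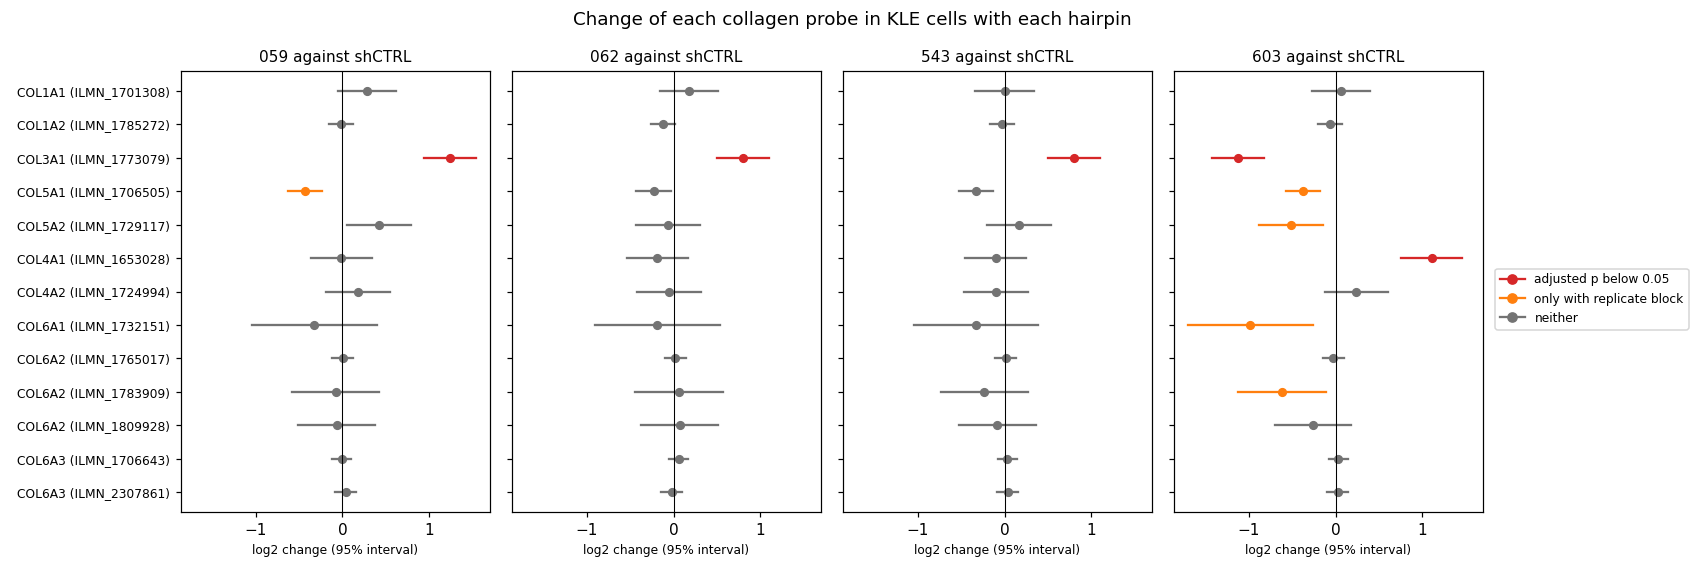
Difference of each tested collagen probe from shCTRL with each hairpin in KLE cells, in log2 units with its 95% interval. Red marks an adjusted p below 0.05, orange probes that pass only with the replicate letter as a block; COL3A1 is above 0 with 059, 062 and 543 and below 0 with 603, where COL4A1 is above 0.

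The basement membrane genes COL4A1 and COL4A2 lie head to head on chromosome 13 and are read in opposite directions. COL4A1 spans 110148963 to 110307157 on the minus strand and COL4A2 110307284 to 110513209 on the plus strand, which leaves 126 bases between their starts. That interval is shown because both genes start from it, with CCAAT and GGGCGG in capitals, read towards COL4A2 (RefSeq, GRCh38.p14, chr13:110307158-110307283, plus strand).

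COL4A1-COL4A2 interval: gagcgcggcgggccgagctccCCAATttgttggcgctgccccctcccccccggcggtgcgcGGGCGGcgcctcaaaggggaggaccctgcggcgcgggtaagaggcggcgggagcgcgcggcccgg

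The interval held 1 CCAAT, 105 to 101 bases before the COL4A2 start, and 1 GGGCGG, 65 to 60 bases before it, and no TATAAA. Over the 126 bases before the start, 21.1% of all promoters held CCAAT, 34.5% GGGCGG and 5.88% TATAAA.

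COL4A1 rose with hairpin 603 and with no other hairpin passed the test. Its probe read 1428, 799 and 968 intensity units in shCTRL arrays A, B and C and 2080, 1519.7 and 1453 with 603, so each 603 array lay above all 3 shCTRL arrays. Array A of hairpins 062 and 543 also read high, at 1694 and 1423, and the B and C arrays of those hairpins read between 474 and 703. After normalization the mean was 9.92 ± 0.04 in shCTRL and 11.03 ± 0.21 with 603, a rise of 1.11 (SE 0.16, adjusted p = 0.00405), or 2.15-fold. Within letters it was 1.34, 0.87 and 1.11. With 059, whose arrays read 1155, 728 and 429, the difference was -0.01, with 062 it was -0.19 and with 543 -0.10, and each of these was above 0 in letter A and below 0 in B and C. Median scaling lowered the rise with 603 to 0.80 and ended its call (adjusted p = 0.620), values as deposited gave 0.68 (adjusted p = 0.658), and median scaling with the letter as a block gave 0.80 with the call restored (adjusted p = 0.0303).

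COL4A2, the partner chain, did not pass with any hairpin. Its levels were 7.29, 8.06 and 7.71 in shCTRL and 7.76, 8.15 and 7.87 with 603, and the groups overlapped. The difference with 603 was 0.24 (95% interval -0.13 to 0.61, adjusted p = 0.684, and 0.371 blocked by letter), above 0 in all 3 letters at 0.47, 0.09 and 0.16. With 059, 062 and 543 it was 0.18, -0.06 and -0.10. The shCTRL arrays of this probe spread more (SD 0.39) than those of COL4A1.

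The type VI genes COL6A1 (chromosome 21, 45981770 to 46005048) and COL6A2 (46098112 to 46132848) lie in the same orientation 93063 bases apart, and COL6A3 lies on chromosome 2 (237324018 to 237414164). Their products join as 3 different chains in the type VI monomer, of which the COL6A3 chain is the longest. The 250 bases before the starts of COL6A2 and COL6A3 are shown as those of the type VI members matched in the promoter table. Both are RefSeq's, GRCh38.p14, at chr21:46097862-46098111 on the plus strand and chr2:237414165-237414414 on the minus strand, with TATAAA and GGGCGG in capitals (CCGCCC is GGGCGG on the opposite strand).

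COL6A2: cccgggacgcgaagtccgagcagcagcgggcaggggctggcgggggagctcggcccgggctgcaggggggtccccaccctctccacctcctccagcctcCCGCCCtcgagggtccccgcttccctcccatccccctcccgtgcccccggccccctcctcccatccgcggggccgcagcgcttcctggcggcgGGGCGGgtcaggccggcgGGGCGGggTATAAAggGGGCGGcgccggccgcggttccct
COL6A3: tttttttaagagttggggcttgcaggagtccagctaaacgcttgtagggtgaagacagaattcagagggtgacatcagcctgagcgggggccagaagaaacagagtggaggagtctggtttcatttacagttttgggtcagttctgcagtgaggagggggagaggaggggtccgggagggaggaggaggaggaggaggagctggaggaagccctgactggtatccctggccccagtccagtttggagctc

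COL6A2 held 1 TATAAA 32 to 27 bases before its start with a GC box on each side of it, at 40 to 35 and 24 to 19, and 2 more at 58 to 53 and 151 to 146. The COL6A3 window held none of the 3 motifs.

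The COL6A1 probe read 440.2, 489 and 666 intensity units in shCTRL and 188, 233 and 200.5 with 603, with no overlap. Its levels were 8.30, 9.24 and 9.43 in shCTRL and 7.76, 8.11 and 8.14 with 603. In both groups letter A was the lowest. The difference was -0.98 (SE 0.33, adjusted p = 0.205), and it passed once the letter was blocked (SE 0.12, adjusted p = 0.00076). By letter it was -0.54, -1.13 and -1.28. Under median scaling, also without the block, it was -1.16 and passed (adjusted p = 0.0166), and on values as deposited it was -1.28 (adjusted p = 0.0265). With 059, 062 and 543 it was -0.33, -0.19 and -0.33 and passed in neither fit.

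COL6A2 is read by 3 probes, which disagree in how much they show. ILMN_1783909 stood at 7.31, 7.88 and 8.04 in shCTRL and at 6.94, 7.25 and 7.20 with 603, and did not overlap. Its difference was -0.62 (SE 0.23, adjusted p = 0.278), which passed in the blocked fit (SE 0.10, adjusted p = 0.00438), at -0.37, -0.63 and -0.85 within letters. ILMN_1809928 gave -0.26 (adjusted p = 0.727, and 0.0521 with the block), below 0 in all 3 letters. ILMN_1765017 lay between 6.82 and 7.05 on all 21 arrays and gave -0.03. For COL6A3 the probes gave 0.03 and 0.02 with 603, with 95% intervals of -0.08 to 0.14 and -0.10 to 0.14, around a level near the array median.

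With hairpin 603, then, 2 of the 13 tested collagen probes were called, COL3A1 lower and COL4A1 higher, where 2.06% of all tested probes passed. Blocked by letter, 6 of 13 were called, where 6.3% of all probes passed: COL4A1 higher and COL3A1, COL5A1, COL5A2, COL6A1 and COL6A2 (ILMN_1783909) lower. With hairpin 059 the block gave 2 of 13, COL3A1 higher and COL5A1 lower, where 1.29% of all probes passed. The median over the 13 collagen probes was -0.06 with 603, against 0.01 over all tested probes. Under median scaling with the block the number with 603 was again 6. The mean level of the smooth muscle list was 8.30 to 8.41 on the shCTRL arrays and 7.80 to 7.92 on the 603 arrays, which was not tested. This mean does not tell a change of ACTA2 alone from a change of the list. In each KLE group 1 of its 4 markers (ACTA2) was read at over 1 log2 unit above the array median, and MYH11, CNN1 and DES were not. Of 10 fibroblast markers, 4 (FBLN1, PDPN, TWIST1 and VIM) were read at that level in every KLE group, and the list's mean level was 8.26 to 8.31 in shCTRL and 8.09 to 8.22 with 603. Its other markers, DCN, FAP, PDGFRA, PDGFRB, PRRX1 and THY1, were not read at that level. The endothelial list (PECAM1, CDH5, KDR, VWF and TEK) had a mean level of 7.19 to 7.27 in shCTRL and 7.10 to 7.16 with 603, and TEK alone reached 1 log2 unit above the median in shCTRL. The part of these cell type markers in the collagen differences was not tested.

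**Figure D3:**
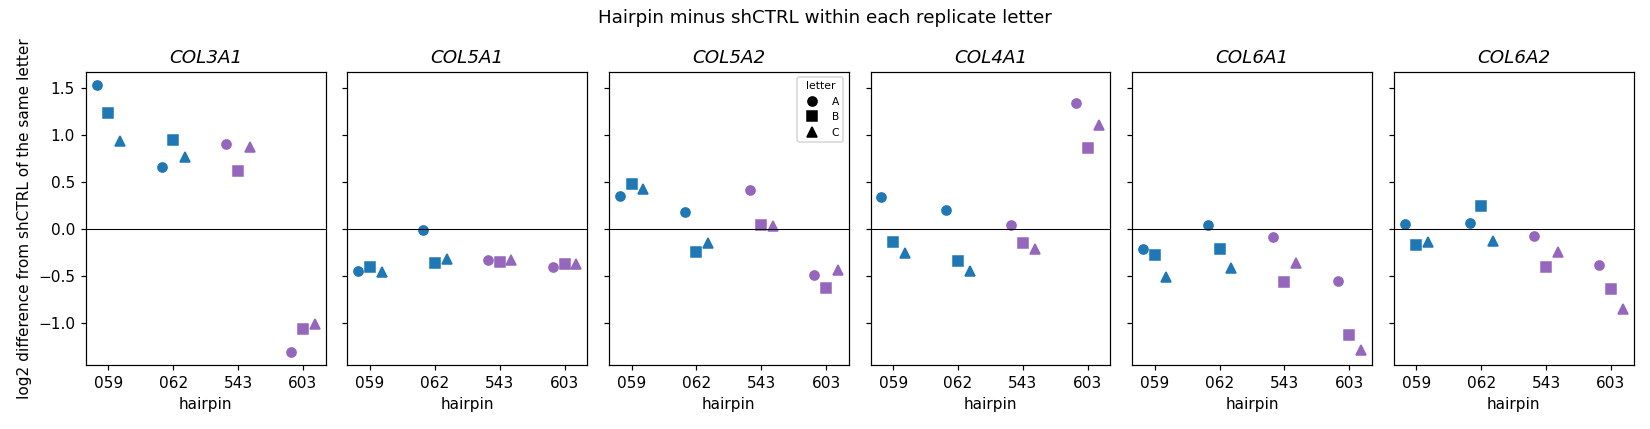
Difference between the hairpin array and the shCTRL array of the same letter, in log2 units, for 6 collagen genes (COL6A2 by probe ILMN_1783909), with MSH3 hairpins in blue and MSH6 hairpins in purple. With hairpin 603 all 3 letters lie below 0 for COL3A1, COL5A1, COL5A2, COL6A1 and COL6A2 and above 0 for COL4A1.

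Whether the 2 hairpins against 1 target gave the same collagen levels was tested directly. For MSH6, hairpins 603 and 543 differed: COL3A1 was lower with 603 than with 543 by -1.92 (SE 0.14, adjusted p = 5.95e-05), a level 3.79-fold lower, and COL4A1 was higher by 1.21 (SE 0.16, adjusted p = 0.00351). These were 2 of 13 probes, where 0.952% of all probes passed. The COL3A1 difference was -2.20, -1.68 and -1.88 in letters A, B and C, and that of COL4A1 was 1.29, 1.01 and 1.31. In the blocked fit 4 of 13 were called, where 3.11% of all probes passed, with COL5A2 (-0.68, adjusted p = 0.00354) and COL6A1 (-0.65, adjusted p = 0.0127) also lower. The reduction of MSH6 itself was larger with 543 than with 603 (23.0% and 52.5% of control). Without the block, median scaling ended both calls (adjusted p = 0.0687 for COL3A1 and near 1 for COL4A1), as did values as deposited, and under median scaling with the block they passed (adjusted p = 0.00428 and 0.0266) while COL5A2 and COL6A1 did not (COL5A2 (ILMN_1729117), 603 against 543, adjusted p = 0.0793, and COL6A1 (ILMN_1732151), 603 against 543, adjusted p = 0.0777).

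For MSH3, hairpins 062 and 059 gave 0 calls of 13 in limma's test, where 0.13% of all probes passed. An unadjusted p under 0.05 was found for 3 collagen probes, and the share of all probes under it was not counted. COL3A1 was lower with 062 by -0.44 (adjusted p = 0.372), and COL5A2 by -0.49 (adjusted p = 0.496). Blocking the letter gave a call for COL5A2 (adjusted p = 0.0437), 1 of 13, where 1.28% of all probes passed. The COL5A2 difference was -0.16, -0.72 and -0.57 in the 3 letters.

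The mean of the MSH3 hairpins was set against the mean of the MSH6 hairpins, a comparison without the control arrays. COL3A1 was higher with the MSH3 hairpins by 1.18 (SE 0.10, adjusted p = 0.000284) and COL4A1 lower by -0.60 (SE 0.11, adjusted p = 0.0230), 2 of 13 where 1.63% of all probes passed. The blocked fit called 5 of 13, where 7.61% of all probes passed, adding COL5A2 (0.35, adjusted p = 0.0134), COL6A1 (0.40, adjusted p = 0.0164) and COL6A2 (0.42, adjusted p = 0.00605). The MSH6 mean joins 2 hairpins that differed in these same genes. Arrays of 543 overlapped with those of 062 for COL3A1, and no collagen probe separated all 6 arrays of one target from all 6 of the other. The share of all probes that did so was not counted. The COL4A1 call was lost without 059 array B or C, 062 array B or C, 543 array A or B, or 603 array A or C, and in a fit of these 4 groups alone. Both calls were lost under median scaling and as deposited, and under median scaling with the block they passed (adjusted p = 0.0160 and 0.0498), as did COL6A2 (ILMN_1783909, adjusted p = 0.0482), while the calls of COL5A2 and COL6A1 were lost.

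Several collagens also differed by replicate letter. Letter A differed from B and C in 5 of 13 tested probes, where 38.4% of all tested probes did, so the share was near that of the array as a whole. COL5A2 (0.32, adjusted p = 0.00228) and COL4A1 (0.28, adjusted p = 0.00826) were higher in letter A. COL6A1 (-0.72, adjusted p = 1.48e-05) and 2 COL6A2 probes (-0.48 for ILMN_1783909 and -0.45 for ILMN_1809928) were lower. The COL6A1 difference lost its call under median scaling (-0.23, adjusted p = 0.0961) and as deposited (-0.10, adjusted p = 0.488), and that of ILMN_1783909 as deposited (-0.13, adjusted p = 0.225). Other probes gained a call in letter A: COL3A1 (0.58, adjusted p = 0.00875) and COL5A1 (0.21, adjusted p = 0.0219) under median scaling, and COL3A1 (0.70), COL5A1 (0.34) and COL1A1 (0.35) as deposited. The labels do not say what the letters stand for.

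Across the 15 KLE arrays, with the mean of each letter taken out, some collagen pairs went together and some in opposite directions. Other pairs were near 0, such as COL5A1 with COL5A2 (-0.02). These values are descriptions over arrays that share groups, and they carry no p. Group means were not taken out, so each r includes the differences between hairpins given above. COL3A1 went with its neighbour COL5A2 (Pearson r = 0.85, n = 15 arrays) and against COL4A1 (-0.84). COL4A1 went with COL4A2 (0.60) and against COL5A2 (-0.71) and COL6A1 (-0.81). COL6A1 went with both COL6A2 probes that lay above the median (0.91 for ILMN_1783909 and 0.85 for ILMN_1809928), and these went together at 0.90. COL1A1 and COL1A2, both near the array median, gave -0.36.

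**Figure D4:**
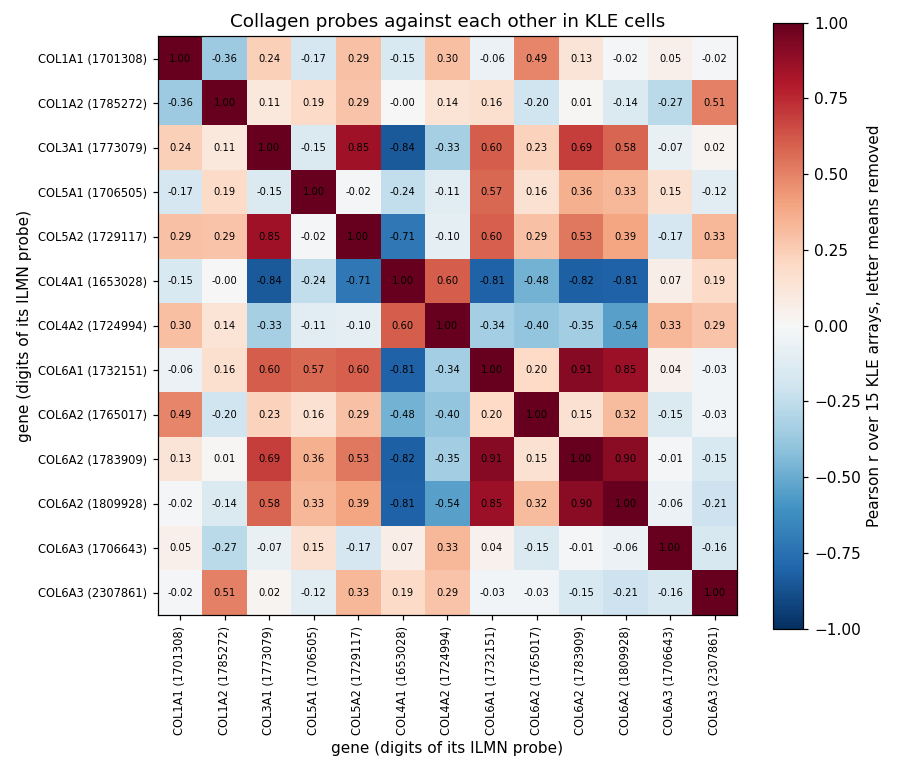
Pearson r between the 13 tested collagen probes over 15 KLE arrays after the mean of each letter was subtracted, from blue (-1) to red (1). COL3A1 and COL5A2 reach 0.85, COL6A1 and COL6A2 reach 0.91, and COL4A1 is below 0 with COL3A1, COL5A2 and COL6A1.

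Among all genes tested, those with the pattern most like a collagen's over the same 15 arrays were named by rank of r. They were OLFML1 and ABCB5 for COL3A1 (0.92 each), SOSTDC1 (0.96) and HEG1 (0.93) for COL5A2, and TMEM158 (0.93) and IGFBP6 (0.92) for COL5A1. ABCB5 had a mean level of 6.95, near the array median of 6.92. ANKLE2 and CDC34 were closest to COL4A1 (0.97 each), and WDR5CP (0.90) and TRAPPC8 (0.88) to COL4A2. For COL6A1 they were ZMYM3 and LSS (0.93 each), and for COL6A2 IRX3 (0.95) and TAMM41 (0.94). For the probes near the array median they were HDHD3 (0.91) and PACS1 (0.86) for COL1A1, AFAP1L1 (0.86) and SMIM23 (0.83) for COL1A2, and PLPPR2 (0.89) and OR2L2 (0.81) for COL6A3.

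The genes that build, cross-link, bind and break down collagen were read from 7 lists, with each gene by its brightest probe. Their counts are read against the share of all probes called, which was 0.348% with 059, 0.232% with 062, 0.261% with 543 and 2.06% with 603, and in the blocked fit 1.29% with 059 and 6.3% with 603. Of 18 other collagens tested, 0 passed with hairpins 059, 062 and 543, and with 603 COL16A1, a collagen of the fibril surface, rose by 2.08 (SE 0.47, adjusted p = 0.0444) while COL9A1, a cartilage chain, fell (-0.47, adjusted p = 0.00464). The COL9A1 probe was dim, with a mean level of 7.05 over the KLE arrays against the array median of 6.92. Of 22 genes of synthesis and secretion, P4HA1 rose with 059 (0.51, adjusted p = 0.0388) and P4HA2 with 603 (0.39, adjusted p = 0.0490), and both encode catalytic subunits of prolyl 4-hydroxylase, which stabilises the triple helix. The medians of this list lay between 0.01 and 0.05 with the 4 hairpins.

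Of 16 processing and cross-linking genes, LUM was the only one called with any hairpin against shCTRL. It encodes lumican, a proteoglycan that binds fibrillar collagen, and it rose with all 4: by 1.27 with 059, 1.39 with 062, 0.66 with 543 and 1.46 with 603 (adjusted p = 0.000128, 4.56e-05, 0.0339 and 2.44e-05), against the shared shCTRL arrays. LUM and COL3A1 both rose with 059, 062 and 543, whereas with 603 LUM rose and COL3A1 fell, and between 603 and 543 LUM was higher with 603 (0.79, adjusted p = 0.00419). With the MSH3 hairpins against the MSH6 hairpins, PCOLCE, which speeds the trimming of procollagen (0.52, adjusted p = 0.0494), and SPARC, a collagen-binding matrix protein (0.41, adjusted p = 0.0342), were higher, and LOXL4, a lysyl oxidase-like enzyme, was lower (-1.12, adjusted p = 0.0357).

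Among the partners of type IV collagen in the basement membrane, LAMB3, a laminin chain of epithelial basement membranes, fell with 059 (-1.16, adjusted p = 0.0189) and with 603 (-1.53, adjusted p = 0.00104), and LAMA1, another laminin chain, fell with 603 (-0.31, adjusted p = 0.0156). These were 1 and 2 of 17 tested partners, and with 603 the median of the 17 was -0.08 against 0.01 over all probes, while COL4A1 rose. Of 15 genes of collagen breakdown and its inhibitors, TIMP3 (-0.53, adjusted p = 0.0410) and RECK (-0.41, adjusted p = 0.0413), both inhibitors of matrix metalloproteinases, fell with 603, and both were also lower with 603 than with 543 (-0.66, adjusted p = 0.0212, and -0.64, adjusted p = 0.00495). LAMA1 was lower there as well (-0.37, adjusted p = 0.00882), though its mean level over the KLE arrays was 6.97, near the array median of 6.92. Of 12 collagen receptors and of 15 genes of TGF-beta signalling and its matrix targets, 0 were called with any of the 4 hairpins in limma's test. At an unadjusted p under 0.05 between 0 and 2 receptors and between 1 and 2 TGF-beta genes were found per hairpin. The share of all probes at that threshold was not counted. In the blocked fit, up to 2 receptors and 1 TGF-beta gene were called with a hairpin.

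Between the control samples of the lines, the collagens were higher in KLE wherever a difference from KLE passed. HCT116 was lower than KLE shCTRL in 8 of 12 tested probes (7 of 10 genes) and higher in 0, where 51.7% of all 19741 tested probes passed and 24.1% were lower. MCF10A was lower than KLE in the same number of probes, 8 of 12, and higher in 0, where 50% of all probes passed and 24.7% were lower. The median over the 12 probes was -0.51 in HCT116 and -0.56 in MCF10A, against 0.02 and 0.01 over all probes. Both comparisons share the shCTRL arrays. COL3A1 and COL6A2 (ILMN_1809928) met the filter of 3 arrays above the median only through KLE, so the filter favoured their being called lower. With no filter, 8 of 14 collagen probes were called in each comparison, where 34.2% of all probes passed in HCT116 and 33% in MCF10A.

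COL5A2 was read at 95, 114 and 146 intensity units in HCT116 and at 164, 152 and 142 in MCF10A, against 1778, 821 and 1012 in KLE shCTRL. On the log2 scale it was -3.11 in HCT116 and -2.74 in MCF10A (SE 0.09 each, adjusted p = 8.71e-09 and 1.75e-08). COL3A1 lay at the array median in both other lines, between 6.83 and 6.98, and was -1.59 in HCT116 and -1.53 in MCF10A (adjusted p = 1.61e-08 and 1.89e-08). For COL3A1 the 603 arrays of KLE, at 7.16 to 7.42, still lay above all 6 arrays of the other lines. COL5A1 was lower by -0.37 and -0.38, calls that were lost as deposited (adjusted p = 0.0812 and 0.0744), and COL1A1 and COL1A2 did not pass (0.06 and 0.11 in HCT116, 0.06 and 0.10 in MCF10A). With normexp background correction COL3A1 was -3.10 in HCT116 and -2.86 in MCF10A, and COL5A2 was -4.69 in HCT116. Where a line's probe lay at the array median, background was most of its value and the difference understates the difference in RNA.

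COL4A1, like COL5A2, passed in all 3 comparisons of lines. It read 92, 102 and 108 intensity units in HCT116, 319, 295 and 228 in MCF10A and 799 to 1428 in KLE shCTRL, with no overlap between any of them. It was -3.15 in HCT116 and -1.91 in MCF10A against KLE (adjusted p = 2.84e-10 and 4.93e-09), and -1.24 in HCT116 against MCF10A (SE 0.05, adjusted p = 1.30e-07). COL4A2 was lower by -0.73 in HCT116 and -0.56 in MCF10A (adjusted p = 0.00396 and 0.0177) and did not pass between those lines (-0.18, 95% interval -0.55 to 0.19). HCT116 against MCF10A gave 2 of 12 probes, both lower, COL4A1 and COL5A2 (-0.37, adjusted p = 0.0108), where 39.3% of all probes passed and 18% were lower. The COL5A2 call was lost under median scaling (adjusted p = 0.232) and as deposited (0.453). Normexp took the COL4A1 difference to -5.15 in HCT116 against KLE and to -2.80 against MCF10A. Without MCF10A replicate 1 or 2 the COL4A2 call in MCF10A was lost.

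The type VI genes took another order. COL6A1 was -1.65 in HCT116 and -2.15 in MCF10A (adjusted p = 0.000257 and 4.67e-05), with levels of 7.36, 7.36 and 7.31 in HCT116 and 6.88, 6.84 and 6.79 in MCF10A. HCT116 lay above MCF10A on all arrays, by 0.50 (95% interval -0.02 to 1.03), which did not pass (adjusted p = 0.124), while median scaling (0.50, adjusted p = 0.0355) and normexp background correction (1.37, adjusted p = 0.000962) gave a call. COL6A2 was lower than in KLE with both probes above the median, by -0.62 and -0.41 in HCT116 and by -0.81 and -0.56 in MCF10A. The smaller of the HCT116 differences (ILMN_1809928, adjusted p = 0.0176) was lost as deposited and without HCT116 replicate 3, shCTRL replicate 2 or shCTRL replicate 3. COL6A3 did not pass (0.05 and 0.02).

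**Figure D5:**
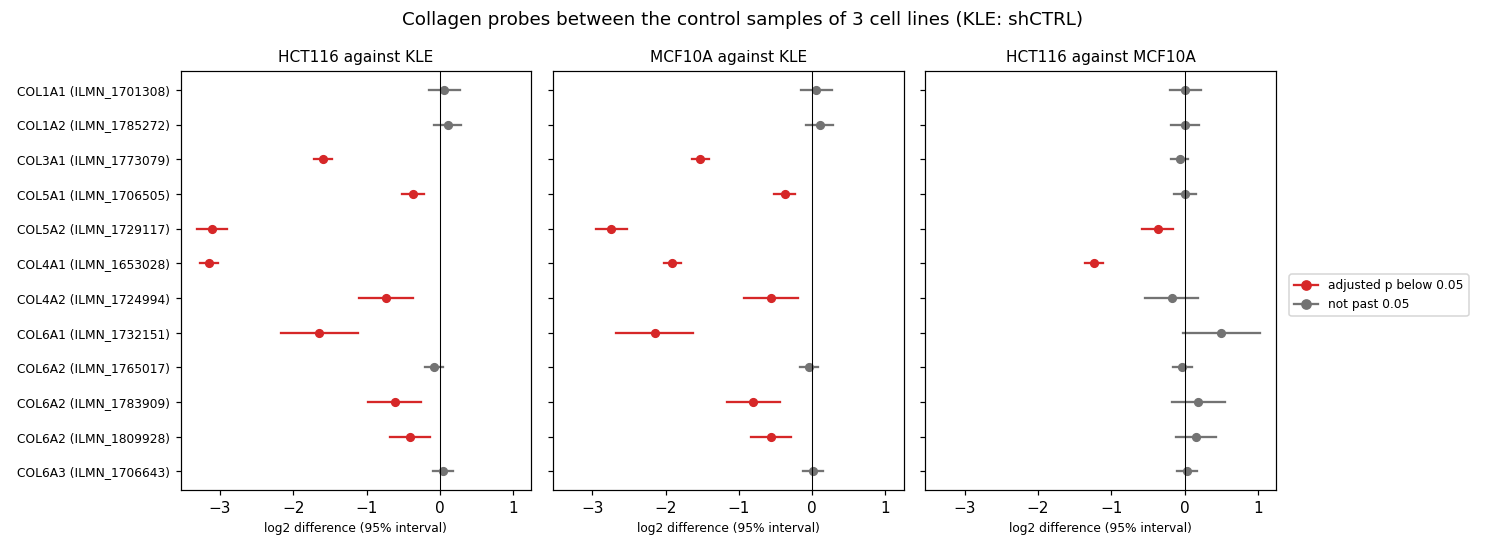
Difference of each of the 12 collagen probes tested between the control samples of the lines, in log2 units with its 95% interval, red where the adjusted p is below 0.05. All red points lie below 0, down to -3.15 for COL4A1 in HCT116, and COL4A1 also differs between HCT116 and MCF10A.

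Listed in order of level over the 7 groups, neighbours often did not differ beyond their spread. For COL3A1 the order was 059, 543, 062, shCTRL, 603, MCF10A and HCT116, and only 543 and 062 overlapped. The lowest 059 array (9.369) and the highest 543 array (9.367) nearly met, and MCF10A and HCT116 did not differ in limma's test. For COL4A1 it was 603, shCTRL, 059, 543, 062, MCF10A and HCT116, with overlap among shCTRL, 059, 543 and 062. For COL5A2 it was 059, 543, shCTRL, 062, 603, MCF10A and HCT116. Its neighbours from 059 to 062 overlapped, while all 059 arrays lay above those of shCTRL and 062. COL6A1 ran shCTRL, 062, 059, 543, 603, HCT116 and MCF10A, with overlap among the first 4. For COL1A1 and COL1A2 every neighbour overlapped.

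The other genes of the collagen system are read against the shares over all probes, 51.7% called and 24.1% lower in HCT116, and 50% called and 24.7% lower in MCF10A. Of 19 other collagens tested, 13 were lower in HCT116 than in KLE and 0 higher (median -0.64), led by COL11A1, a minor fibrillar collagen (-4.33), COL4A5, a further type IV chain (-2.17), and COL9A2 (-1.91). In MCF10A 7 were lower and 3 higher, 10 of 19 and so near the share of all probes: COL11A1 (-4.37), COL18A1, a basement membrane collagen (-3.04), and COL9A2 (-1.99) led the falls, and COL8A1, a network collagen (2.24), COL7A1, the anchoring fibril collagen (0.82), and COL4A6, a further type IV chain (0.67), were the rises. Of 16 basement membrane partners 13 were lower and 1 higher in HCT116, with AGRN, the proteoglycan agrin, at -3.81, and in MCF10A 10 were lower and 3 higher, with EFEMP1, a fibulin, at 3.26 and LAMB3 at 2.48. Of 15 processing and cross-linking genes, 1 was higher and 12 were lower in HCT116, and 3 were higher and 12 lower in MCF10A. Among them SPARC was lower in both lines (-3.28 and -3.11), and DCN, the collagen-binding proteoglycan decorin, was higher in MCF10A (3.71). Of 14 genes tested in the TGF-beta list, 1 was higher and 8 were lower in HCT116, and 7 were higher and 6 lower in MCF10A. TGFBI, a collagen-binding matrix protein, was higher in MCF10A by 5.31. CCN2, a matricellular protein, was lower in both lines, by -5.62 in HCT116 and -3.51 in MCF10A.

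Of 21 genes of collagen synthesis, 13 were called in each line, 7 higher and 6 lower in HCT116 and 8 higher and 5 lower in MCF10A, a share not far above the 51.7% and 50% of all probes. P4HB, a subunit of prolyl 4-hydroxylase, was higher in HCT116 (1.64), where PLOD2, a lysyl hydroxylase, was lower (-1.80), and P3H2, a prolyl 3-hydroxylase, was higher in MCF10A (2.25). Of 12 receptors, 2 were higher and 3 lower in HCT116, and 5 were higher and 1 lower in MCF10A. ITGA2, the alpha 2 integrin chain that binds collagen, was higher in MCF10A (1.90). ITGB1 was higher in both lines (1.26 in HCT116 and 1.57 in MCF10A), and DDR1, a collagen-binding kinase, was lower in both (-1.65 in HCT116 and -1.08 in MCF10A). Fibroblast markers moved between the lines too: 6 of 10 were read at over 1 log2 unit above the array median in MCF10A (list mean 8.73 to 8.87), 4 in KLE shCTRL (8.26 to 8.31) and 0 in HCT116 (7.04 to 7.08), and their part in the collagen differences was not tested.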

How the data were processed

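The deposited table held 1 linear intensity per probe and array, exported from GenomeStudio per the submitters' processing notes, whose version is not stated. No background subtraction or scaling by the authors was evident in the deposited intensities, and no detection p-values were used. Of 47323 probes, 30113 carried 1 gene symbol, 8 several and 17202 none. Groups came from the sample titles.

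Values were transformed to log2(intensity + 16) and quantile-normalized over 21 arrays. limma 3.58.1 in R 4.3.3 was fitted to probes with 1 gene symbol that lay above the array median on at least 3 arrays of the fit: 15 KLE arrays (20692 probes) and 9 arrays of the lines (19741). P-values were moderated, two-sided and Benjamini-Hochberg adjusted over all tested probes, with a threshold of 0.05 and 95% intervals. The script was tested on simulated data with 200 changed probes. Motifs were searched with Python 3.11.15, figures drawn with matplotlib 3.10.9.

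The report names all 10 members, MSH3 and MSH6, up to 3 rises and 3 falls per list and comparison, and the 2 genes closest to each member. The members and lists were chosen with earlier results of these data known.

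The KLE letters pair arrays across groups. Residuals of arrays of different groups correlated at a median of 0.685 for A with A, 0.529 for B with B and 0.548 for C with C (lowest 0.378), against -0.591 for A with B. B with C gave 0.518, so these letters were not told apart. Alternatives were median scaling, values as deposited, normexp, other offsets, no filter, the replicate block, only the groups compared, letters B and C alone and each array left out. Median scaling with the block was added after seeing the data.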

Additional observations from a re-analysis of the deposited data

Results flagged for a closer look

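The 2 hairpins against MSH6 differed from each other by a test of the difference itself, in 2 collagen genes. COL3A1 was lower with hairpin 603 than with hairpin 543 by a log2 difference of -1.92, and each of the 3 letters showed that direction. COL4A1 was higher with 603 than with 543 by 1.21, again in each of the 3 letters. No cause of the difference between the hairpins was tested. Groups of 3 arrays are too small to look for a single outlying array.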

How the results depend on the processing

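Counts are of collagen probes called, of 13 in KLE and 12 between lines. The run with no filter tested 14, and only the groups compared tested 9 to 13. No called collagen probe reversed its direction under any alternative run. Median scaling gave 0 calls with 059, 062 and 543, 1 with 603, and 0 for 603 against 543 and for MSH3 against MSH6 hairpins. Of all probes, 0.121%, 0.0918%, 0.087%, 0.623%, 0.14% and 0.164% passed in these 6 comparisons. Values as deposited gave the same counts (0, 0, 0, 1, 0 and 0) and 1 for HCT116 against MCF10A. There 0.0677%, 0.0532%, 0.0532%, 0.29%, 0.00967%, 0.0435% and 19% of all probes passed. Normexp gave 0 with 062 and with 543, and no filter 0 with 062, where 0.164%, 0.15% and 0.146% of all probes passed. The replicate block gave 2 with 059, 6 with 603, 1 for 062 against 059, 4 for 603 against 543 and 5 for MSH3 against MSH6 hairpins. With the block, 1.29%, 6.3%, 1.28%, 3.11% and 7.61% of all probes passed. Median scaling with the block, chosen after seeing the data, gave 0 with 062, 0 with 543 and 6 with 603. In that fit 0.213%, 0.261% and 5.25% of all probes passed. Letters B and C alone gave 4, 3, 3 and 7 with 059, 062, 543 and 603, 1 for 062 against 059, 5 for 603 against 543 and 6 for MSH3 against MSH6 hairpins, in a fit that called 11.6%, 16.3%, 5.15%, 16.6%, 12.3%, 7.57% and 16% of all probes in these comparisons. Only the groups compared gave 0 with 059, 062 and 543, and 1 for MSH3 against MSH6 hairpins, where 0.114%, 0.0798%, 0.0456% and 1.01% passed. Leaving out 1 array gave 0 to 2 with 062, 0 with 543 each time, 1 to 2 for MSH3 against MSH6 hairpins, 5 to 6 for letter A, and 7 to 8 for HCT116 and for MCF10A against KLE. It left 1 with 059, 2 with 603 and 2 for 603 against 543 each time. With 1 array left out, 0.0929% to 3.21% of all probes passed in these hairpin fits. For letter A 34.6% to 38.1% passed, and for HCT116 and MCF10A against KLE 42.6% to 55.4%. The cause of these changes was not tested.

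Over all alternative runs, 235 results of called list genes lost their call and 2328 kept it. Counts of called genes per list moved beyond a factor of 1.5 in 111 cases and stayed within it in 617. Among list genes, 8 letter A differences reversed. Under median scaling TIMP2 gave 0.061, EFEMP1 0.22 and THBS1 0.20. As deposited COL11A1 gave 0.049, TIMP2 0.19, TIMP3 0.025, EFEMP1 0.35 and THBS1 0.32. The median of all probes moved by -0.11 (059) and 0.11 (letter A) under median scaling, and as deposited by -0.27 (059), -0.19 (603), 0.18 (062 against 059), -0.10 (603 against 543) and 0.24 (letter A). Samples of different lines share only a replicate number (median residual correlations 0.04, -0.21 and -0.25), and the block left their counts of called collagen probes at 8, 8 and 2. Probes near the array median, COL1A1, COL1A2 and COL6A3 among them, limit what these arrays can show, since background is most of their signal.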
